A study of Mus musculus with 12 samples.

Results

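Serum amyloid A3, lipocalin 2, haptoglobin and secretory leukocyte peptidase inhibitor are secreted proteins of the acute-phase and innate response, and their genes, Saa3, Lcn2, Hp and Slpi, were followed in bulk RNA-seq of mouse bone marrow-derived macrophages (BMDMs). These are macrophages grown in culture from bone marrow. The genes were chosen by name, from levels and fold changes already known in these libraries, as 4 of the 54532 genes of the count table. What they did between the groups is therefore given as description, with no p-value. All 4 passed the filter on low counts, in a fit that covered 15338 genes and adjusted every p-value over all of them.

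There were 4 groups of 3 libraries each: OxLDL-treated GpnmbR150X (R150X) cells, OxLDL-treated WT cells, untreated R150X cells and untreated WT cells. OxLDL is oxidised low-density lipoprotein, whose uptake fills macrophages with lipid, and the study's stated question was how Gpnmb, a transmembrane glycoprotein of lipid-laden and phagocytic cells, affects that process. R150X is a premature stop codon in Gpnmb that is carried by DBA/2 mice. Both genotypes had the same strain label, a DBA/2 by C57BL/6 cross that was bred back to C57BL/6. The labels named no transgene or Cre. They gave neither age nor batch, said nothing of how much OxLDL was used or for how long, and did not say whether the 3 libraries of a group were separate mice, separate cultures or pools. Every p-value thus measures only the spread between these libraries, which may be technical.

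An acute-phase response is the change in secreted plasma proteins that follows infection or injury. Interleukin-1, interleukin-6 and tumour necrosis factor drive it through the transcription factors NF-kB, STAT3 and the C/EBP family. The liver makes most of the plasma protein, but macrophages and neutrophils make some of these proteins locally. Saa3 is a serum amyloid A of mice that is made mainly outside the liver, in macrophages among other cells, and is carried by lipoproteins. Lcn2 binds the iron carriers (siderophores) of bacteria and is also stored in neutrophil granules. Hp binds free haemoglobin so that it can be cleared. Slpi inhibits neutrophil elastase and cathepsin G.

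Library totals ran from 14838969 to 18222868 counts, and 3 counts, the floor used here, stood for 0.158 to 0.209 CPM (read counts per 1000000 counts of the scaled library). Gpnmb, the mutated gene, averaged 706 ± 16.3 CPM in OxLDL-treated R150X cells, 12508 ± 136 in OxLDL-treated WT cells, 385 ± 23.9 in untreated R150X cells and 5330.2 ± 37.8 in untreated WT cells (SD, n = 3 each), and so followed the labels. Untreated R150X replicate 1 stood apart. Its counts differed from those of replicates 2 and 3 by a chi-square of 9.23 and 10.1 per degree of freedom, while the other pairs of replicates gave 2.31 to 4.76. It also held the highest level of all 4 genes among the untreated R150X libraries, and the fold changes that it enters are given below with and without it.

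All 4 genes are protein coding and lie on the minus strand of GRCm38. Saa3 (ENSMUSG00000040026) is at chr7:46711998-46715700, with 2606 exonic bases in 4 blocks. Lcn2 (ENSMUSG00000026822) is at chr2:32384633-32388252, with 2623 exonic bases in 5 blocks. Hp (ENSMUSG00000031722) is at chr8:109575128-109579172, with 1606 exonic bases in 6 blocks. Slpi (ENSMUSG00000017002) is at chr2:164354070-164389095, with 1180 exonic bases in 6 blocks. Slpi shares 1 exonic base with the miRNA gene Mir7678, and no other gene overlaps an exon of the 4.

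The windows before the RefSeq starts of Saa3, Lcn2 and Slpi are shown because all 4 genes were lower in the OxLDL-treated groups and because C/EBP, NF-kB and STAT factors are the known drivers of acute-phase genes. The sequences are the RefSeq ones for GRCm38.p6, 5′ to 3′ toward the gene, and cover up to 250 bases before the RefSeq start. Bases that GENCODE annotates as untranslated region were left off, which removed 24 for Saa3, 58 for Lcn2 and 0 for Slpi. The Saa3 window lies upstream of the gene span given above. Those of Lcn2 and Slpi lie inside their spans, by 263 and 32338 bases, because 1 of the 6 GENCODE transcripts of Lcn2 and 1 of the 3 of Slpi begin farther upstream. In the Lcn2 window, 139 of the 192 bases are coding sequence of that transcript, and in the Slpi window 0 of the 250 bases are exonic. Capitals mark matches to TTNNGNAA, a C/EBP-type motif, on either strand.
Saa3 (chr7:46715701-46715926, minus strand): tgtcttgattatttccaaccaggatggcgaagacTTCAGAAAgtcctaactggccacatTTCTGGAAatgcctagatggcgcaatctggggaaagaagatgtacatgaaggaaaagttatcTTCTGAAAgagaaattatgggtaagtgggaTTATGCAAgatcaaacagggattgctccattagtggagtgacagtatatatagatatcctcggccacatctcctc
Lcn2 (chr2:32387798-32387989, minus strand): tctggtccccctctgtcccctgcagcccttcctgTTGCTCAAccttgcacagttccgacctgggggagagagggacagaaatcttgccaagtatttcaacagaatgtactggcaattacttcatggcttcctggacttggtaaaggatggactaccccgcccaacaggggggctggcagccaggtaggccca
Slpi (chr2:164356508-164356757, minus strand): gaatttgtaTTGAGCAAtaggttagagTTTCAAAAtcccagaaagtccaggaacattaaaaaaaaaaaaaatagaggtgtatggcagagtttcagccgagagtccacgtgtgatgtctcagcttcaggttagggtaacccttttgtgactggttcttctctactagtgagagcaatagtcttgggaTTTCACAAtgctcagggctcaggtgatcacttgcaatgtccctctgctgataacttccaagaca

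The Saa3 window held 4 matches to TTNNGNAA, which begin 216, 191, 129 and 99 bases before the start. The Lcn2 window held 1, at 216 bases, and the Slpi window held 3, at 241, 223 and 64 bases. This short motif is common, since 36.8% of 32851 windows of 250 bases in the same set held it on either strand. The NF-kB consensus and the STAT motif TTCNNGGAA, which 3.9% and 4.06% of all windows held, were not found in the 3 windows. A match is a string of letters and was not tested as a binding site.

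Saa3 was measured at 0.627, 1.03 and 1.28 CPM in OxLDL-treated R150X cells, 1.07, 1.02 and 1.18 CPM in OxLDL-treated WT cells, 2606, 1880.2 and 1981 CPM in untreated R150X cells, and 1944, 1800.4 and 1987 CPM in untreated WT cells. Each OxLDL-treated library held 10 to 21 Saa3 reads, against 33355 to 39091 in each untreated library. The treated and untreated libraries were thus far apart in both genotypes, while the genotypes overlapped in either condition. Per kilobase of exon, Saa3 averaged 827 CPM in untreated R150X cells and 733 CPM in untreated WT cells, which made it the 29th and 25th highest of 15332 genes with a known length, and 0.375 and 0.418 CPM in OxLDL-treated R150X and WT cells, at ranks 13338 and 13224.

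Lcn2 was measured at 3.39, 3.55 and 3.90 CPM in OxLDL-treated R150X cells, 10.97, 10.5 and 10.98 CPM in OxLDL-treated WT cells, 102 (replicate 1), 92.6 and 92.9 CPM in untreated R150X cells, and 145, 138 and 135 CPM in untreated WT cells. No 2 groups overlapped, and R150X was below WT in both conditions. On the per-kilobase scale the group means were 1.38 CPM in OxLDL-treated R150X, 4.12 in OxLDL-treated WT, 36.6 in untreated R150X and 53.1 in untreated WT cells, so that Lcn2 stood well below Saa3 in untreated cells and above it in OxLDL-treated cells.

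Hp was measured at 151, 149 and 152 CPM in OxLDL-treated R150X cells, 82.3, 84.3 and 84.7 CPM in OxLDL-treated WT cells, 809.8, 680.3 and 699 CPM in untreated R150X cells, and 454, 434 and 455 CPM in untreated WT cells. No 2 groups overlapped here either, but the order of the genotypes was the opposite of that of Lcn2, with R150X above WT in both conditions. Per kilobase, Hp averaged 93.9 CPM in OxLDL-treated R150X cells, 52.2 CPM in OxLDL-treated WT cells, 454 CPM in untreated R150X cells and 279 CPM in untreated WT cells. It was the highest of the 4 genes in both OxLDL-treated groups, where it ranked 444th (R150X) and 794th (WT) of 15332 genes.

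Slpi was measured at 4.01, 3.03 and 3.17 CPM in OxLDL-treated R150X cells, 3.38, 3.27 and 2.92 CPM in OxLDL-treated WT cells, 14.7, 11.6 and 11.8 CPM in untreated R150X cells, and 8.95, 6.70 and 8.59 CPM in untreated WT cells. The genotypes overlapped under OxLDL and were separate without it. Its reads numbered 42 to 64 in the treated libraries and 127 to 221 in the untreated ones, the fewest of the 4 genes in untreated cells. Per kilobase, Slpi averaged 2.88 CPM in OxLDL-treated R150X, 2.70 in OxLDL-treated WT, 10.8 in untreated R150X and 6.85 in untreated WT cells.

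**Figure D1:**
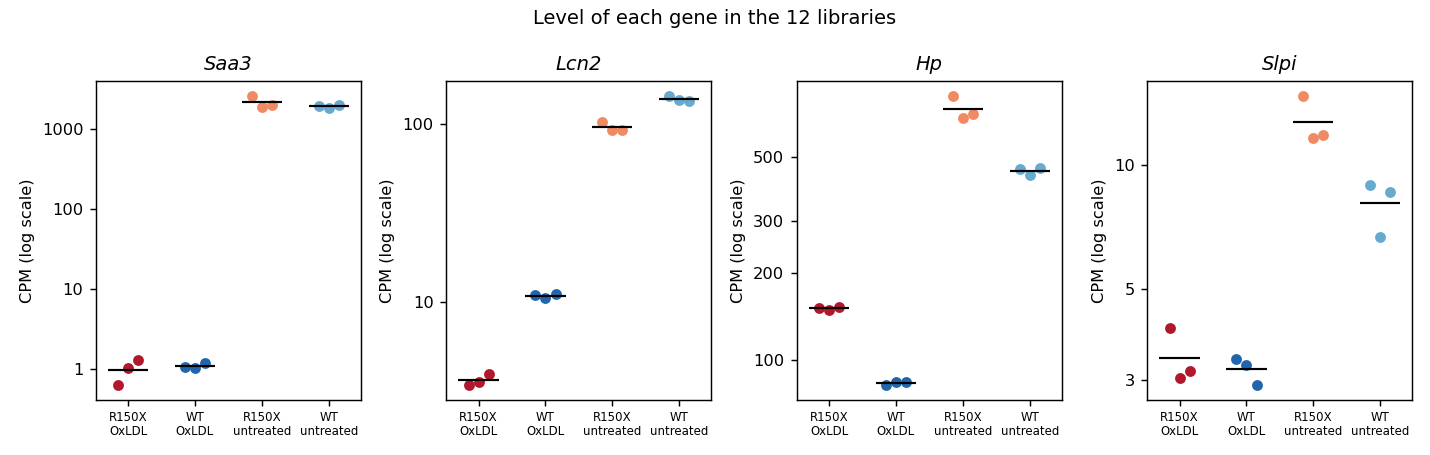
Level of Saa3, Lcn2, Hp and Slpi in each of the 12 libraries. Vertical axes are CPM on a log scale that differs between panels, points are libraries, and the bar is the mean of 3. All 4 genes are lower in every OxLDL-treated library than in every untreated one of the same genotype, R150X lies below WT for Lcn2 and above it for Hp, and the genotypes overlap for Saa3.

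The response to OxLDL was described within each genotype. In R150X cells Saa3 averaged 0.978 ± 0.329 CPM with OxLDL and 2156 ± 393 CPM without (SD, n = 3 each), and the fitted log2 fold change of -11.09 (SE 0.154) was the lowest of all 15338 genes. In WT cells it averaged 1.09 ± 0.0832 CPM with OxLDL and 1910.4 ± 97.7 CPM without, a log2 fold change of -10.77 (SE 0.153), the second lowest. These stand for levels 2177-fold and 1744-fold lower with OxLDL, from only 10 to 21 reads in a treated library. SE throughout is the absolute log2 fold change divided by the square root of the test's F statistic. For a large fold change from so few reads it can be too small. Without untreated R150X replicate 1 the value in R150X cells was -10.93.

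Lcn2 averaged 3.61 ± 0.260 CPM in R150X cells with OxLDL and 95.97 ± 5.56 CPM without, which was 26.5-fold lower (log2 fold change -4.73, SE 0.0816). In WT cells it averaged 10.8 ± 0.285 CPM with OxLDL and 139 ± 5.19 CPM without, 12.9-fold lower (log2 fold change -3.69, SE 0.0685). Lcn2 ranked 93rd and 132nd from the lowest fold change in R150X and WT cells. Without untreated R150X replicate 1 the fold change in R150X cells was -4.68.

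Hp averaged 151 ± 1.68 CPM in R150X cells with OxLDL and 729.6 ± 70.1 CPM without, 4.84-fold lower (log2 fold change -2.27, SE 0.0574). In WT cells it averaged 83.8 ± 1.27 CPM with OxLDL and 448 ± 11.9 CPM without, 5.35-fold lower (log2 fold change -2.42, SE 0.0590). Its ranks were 278 and 246. Slpi averaged 3.40 ± 0.533 CPM in R150X cells with OxLDL and 12.7 ± 1.75 CPM without, 3.73-fold lower (log2 fold change -1.90, SE 0.153). In WT cells Slpi averaged 3.19 ± 0.241 CPM with OxLDL and 8.08 ± 1.21 CPM without, 2.52-fold lower (log2 fold change -1.34, SE 0.163). Its ranks were 380 and 707. The fold change in R150X cells without untreated R150X replicate 1 was -2.19 for Hp and -1.79 for Slpi.

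All 4 genes were called lower with OxLDL in R150X cells and all 4 in WT cells by edgeR's quasi-likelihood test at an adjusted p under 0.05, where 20.6% and 23.1% of the genes tested were called lower and 18.4% and 22.7% higher. The genes were picked with this contrast known, so the counts are a description and nothing is read from them. In a bulk library fewer cells of a type and less RNA per cell cannot be told apart, and this holds for every level given here.

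The genotypes were then compared within each condition. Each uses libraries that the OxLDL comparisons also use, untreated ones for the genotypes without OxLDL and OxLDL-treated ones for the genotypes under it. In untreated cells Hp was 1.63-fold higher in R150X than in WT (log2 fold change 0.70, SE 0.0543) and Slpi was 1.57-fold higher (0.65, SE 0.133). Lcn2 was at 68.8% of its WT level (log2 fold change -0.54, SE 0.0534). For Saa3 the log2 fold change was 0.17 (SE 0.0820), with groups that overlapped. Without untreated R150X replicate 1 these log2 fold changes were 0.61 for Hp, 0.53 for Slpi, -0.60 for Lcn2 and 0.0058 for Saa3. Of the 4 genes, 2 (Hp, Slpi) were called higher and 1 (Lcn2) lower in untreated R150X cells, beside 18.1% and 14.8% of the genes tested.

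Under OxLDL, Lcn2 was at 33.4% of its WT level in R150X cells (log2 fold change -1.58, SE 0.107) and Hp was 1.80-fold higher (0.85, SE 0.0583). Neither Saa3 (log2 fold change -0.15, SE 0.363) nor Slpi (0.09, SE 0.187) was separated from WT, and the direction of both turned round, to 0.080 for Saa3 and -0.045 for Slpi, without OxLDL-treated R150X replicate 1. Of the 4, 1 (Hp) was called higher and 1 (Lcn2) lower, beside 6.1% and 6.92% of the genes tested.

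**Figure D2:**
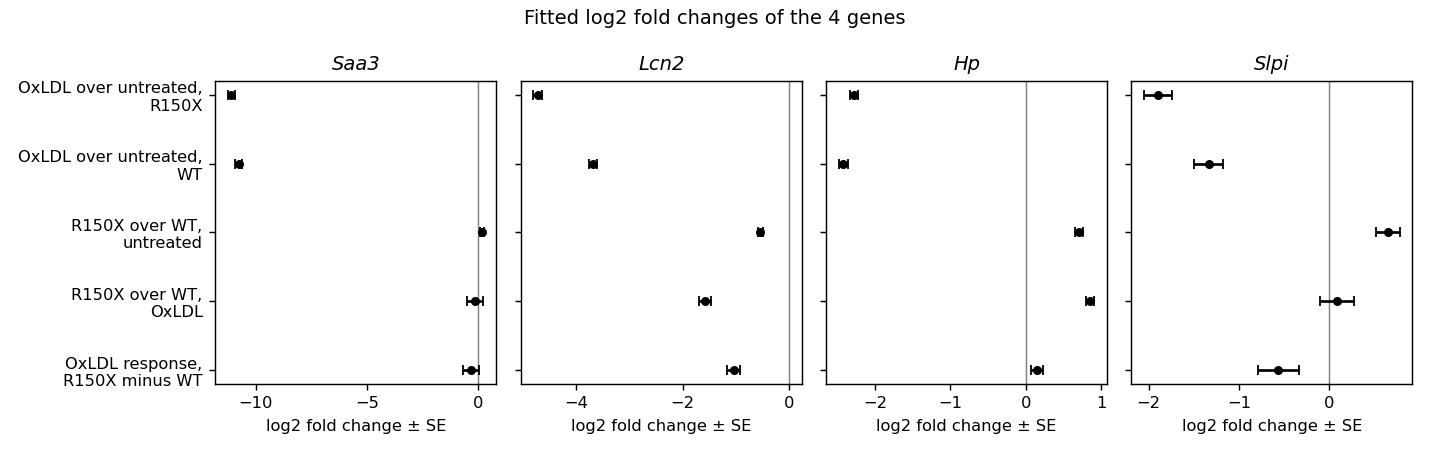
Fitted log2 fold changes of Saa3, Lcn2, Hp and Slpi, for OxLDL over untreated cells in each genotype, R150X over WT in each condition, and the difference between the responses of R150X and WT cells to OxLDL. Bars are the SE, taken as the absolute fold change divided by the square root of the test's F statistic. Horizontal axes differ between panels. The OxLDL rows of all 4 genes lie left of 0, and the genotype rows lie left of 0 for Lcn2 and right of it for Hp.

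The difference between the OxLDL responses, R150X minus WT, was -1.04 on the log2 scale for Lcn2 (SE 0.121), -0.32 for Saa3 (SE 0.374), 0.14 for Hp (SE 0.0794) and -0.56 for Slpi (SE 0.230). Only Lcn2 of the 4 was called by the interaction term, in the lower direction, and 0 were called higher, where 5.19% and 3.13% of the genes tested were called lower and higher. Without untreated R150X replicate 1 the differences were -0.99 for Lcn2, -0.15 for Saa3, 0.23 for Hp and -0.44 for Slpi, and that of Hp then passed the threshold. Without OxLDL-treated R150X replicate 1 the difference was -0.095 for Saa3 and -0.70 for Slpi. The ratio of Hp to Lcn2 CPM averaged 41.9 ± 2.76 in OxLDL-treated R150X cells, 7.75 ± 0.271 in OxLDL-treated WT cells, 7.59 ± 0.289 in untreated R150X cells and 3.22 ± 0.133 in untreated WT cells (SD, n = 3 each). The ratio of Saa3 to Lcn2 CPM averaged 0.268 ± 0.0741 in OxLDL-treated R150X, 0.101 ± 0.00596 in OxLDL-treated WT, 22.4 ± 2.73 in untreated R150X and 13.7 ± 0.862 in untreated WT cells. Both ratios were higher in R150X than in WT cells in either condition, and no library of 1 genotype overlapped the other. This restates the lower Lcn2 and, for the first ratio, the higher Hp of R150X cells, and is no separate result.

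Because cells other than macrophages make some of these proteins, markers of other cell types were set beside them. Of the 12 neutrophil markers listed (which leave out Lcn2, Hp and Slpi), 10 passed the filter, and 9 of those fell in R150X against WT in untreated cells and 9 under OxLDL, with 0 higher in either. With OxLDL, 7 fell and 0 rose in R150X cells, and 5 fell and 2 rose in WT cells (1 without OxLDL-treated WT 1). In counts here and below, fell and rose mean called at an adjusted p under 0.05. Of all genes tested, 14.8% fell and 18.1% rose in untreated R150X against WT cells, and 6.92% and 6.1% under OxLDL. With OxLDL, 20.6% fell and 18.4% rose in R150X cells, and 23.1% and 22.7% in WT cells. A gene passes the filter through groups in which it is high, such as WT for Elane (23 to 47 reads, against 1 to 8 in R150X). The summed level of the 12 markers was 112 to 116 CPM in OxLDL-treated R150X, 231 to 247 in OxLDL-treated WT, 283 to 292 in untreated R150X and 520 to 549 in untreated WT libraries, which is the same order of groups as for Lcn2 (ranges over 3 libraries). Csf3r alone averaged 73.9, 101, 88.9 and 101 CPM in these groups, in the same order, and so made up most of the lowest sum. Ly6g, a defining marker of mature neutrophils, had 0 to 10 reads in any library.

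Ngp, a neutrophil granule protein, changed by -1.32 (SE 0.0544; adjusted p = 2.27e-13) in untreated and -2.05 (SE 0.0738; adjusted p = 2.73e-14) in OxLDL-treated R150X against WT cells on the log2 scale, further than Lcn2 in both. The ratio of Lcn2 to Ngp CPM averaged 0.417 ± 0.0245 in OxLDL-treated R150X cells, 0.302 ± 0.0129 in OxLDL-treated WT cells, 1.96 ± 0.0571 in untreated R150X cells and 1.14 ± 0.0229 in untreated WT cells (SD, n = 3 each). Between the genotypes Lcn2 thus moved in the same direction as the neutrophil markers that were called, but not in a fixed ratio to Ngp. Hp was higher in R150X cells, opposite to these markers. With OxLDL in WT cells, where Lcn2 was lower, Mpo rose by 0.58 (SE 0.170, adjusted p = 8.33e-03) and Mmp8 by 0.93 (SE 0.186, adjusted p = 3.10e-04) on the log2 scale. The part of neutrophil-lineage RNA in the levels of Lcn2, Hp and Slpi was not tested.

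The 12 stromal markers, all of which passed the filter, summed to 7476 to 7765 CPM in OxLDL-treated R150X, 7819 to 8395 in OxLDL-treated WT, 11098 to 11201 in untreated R150X and 16453 to 16599 in untreated WT libraries. This order of groups is also that of Lcn2 and of the neutrophil sum, so it is not particular to the neutrophil markers. Of the 12 stromal markers 9 fell and 2 rose in untreated R150X against WT cells, and 4 fell and 1 rose under OxLDL. With OxLDL 8 fell and 1 rose in R150X cells, and 8 fell and 0 rose in WT cells. The shares of all genes tested are those given beside the neutrophil markers. Fat cells also make Saa3, Lcn2 and Hp. The 8 adipocyte markers summed to 38.8 to 44.3 CPM in OxLDL-treated R150X, 2.36 to 4.36 in OxLDL-treated WT, 3.13 to 4.40 in untreated R150X and 0.738 to 1.13 in untreated WT libraries. The 3 that passed the filter, Adipoq, Plin1 and Car3, rose in R150X against WT in both conditions, and all 3 rose with OxLDL in R150X cells and 2 (Adipoq, Plin1) in WT cells. They had 7 to 11, 1 to 3 and 1 to 3 reads in untreated WT and 238 to 288, 166 to 214 and 201 to 230 in OxLDL-treated R150X libraries. A gene passes the filter through groups in which it is high, so nothing is read from the count of 3. Cfd, Cidec, Retn, Lep and Adig had 0 to 10 reads in any library. The part of stromal and fat cells in the results was not tested.

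The 5 hepatocyte markers (among them Alb and Ttr) together had at most 5 reads in any library, and none passed the filter. The 8 macrophage markers summed to 20135 to 21540 CPM in OxLDL-treated R150X, 23686 to 25355 in OxLDL-treated WT, 21162 to 21976 in untreated R150X and 19638 to 19957 in untreated WT libraries. Lyz2, the macrophage lysozyme, made up 70.3% to 81.7% of this sum in every library. The other 7 markers summed to 4280.1 to 4356 CPM in OxLDL-treated R150X, 4509 to 4634 in OxLDL-treated WT, 5937 to 6275 in untreated R150X and 5749.8 to 5874 in untreated WT libraries, so that without Lyz2 the sum was lower with OxLDL in both genotypes, while with it the sum was higher in WT cells. Adgre1, the largest of the 7 in untreated cells, averaged 769 and 833 CPM in OxLDL-treated R150X and WT cells. In untreated R150X and WT cells it averaged 2763 and 2727 CPM, so its own fall exceeded that of the sum. Of the 8 markers, 4 were called higher and 4 lower with OxLDL in R150X cells, and 4 and 2 in WT cells. Single markers moved both ways with OxLDL: Adgre1, which encodes F4/80, changed by -1.85 (SE 0.0403; adjusted p = 2.94e-19) in R150X and -1.71 (SE 0.0401; adjusted p = 1.34e-18) in WT cells, and the lysosomal Cd68 by 0.57 (SE 0.0373; adjusted p = 4.49e-11) in R150X and 0.79 (SE 0.0375; adjusted p = 1.72e-13) in WT cells. Which cells made the RNA of the 4 genes cannot be read from bulk libraries.

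**Figure D3:**
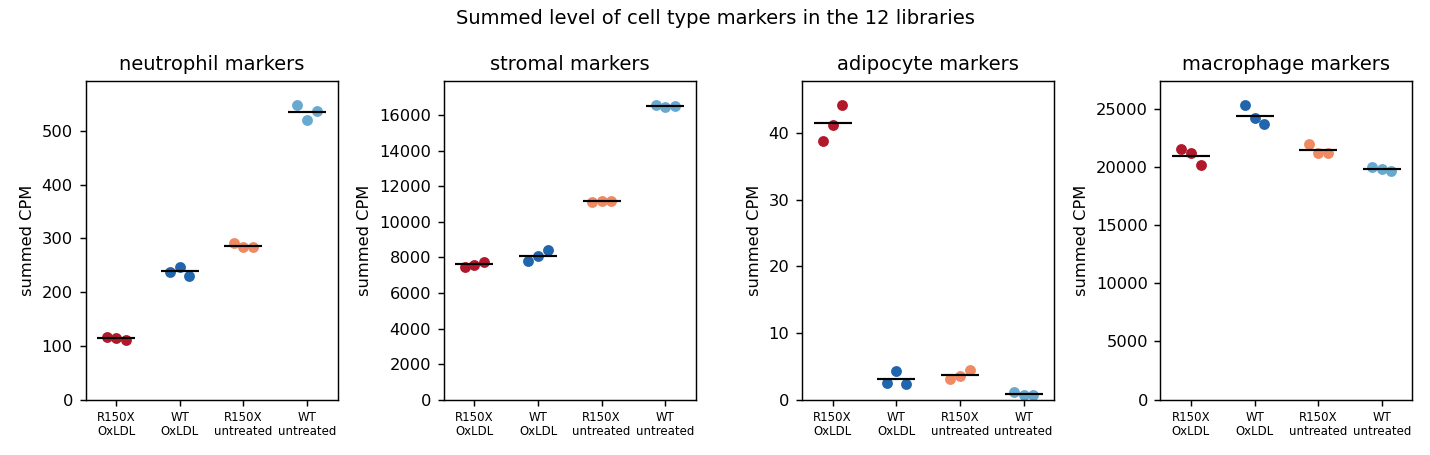
Summed CPM of neutrophil, stromal, adipocyte and macrophage markers in each of the 12 libraries. Points are libraries, the bar is the mean of 3, and vertical axes start at 0 and differ between panels. Neutrophil and stromal sums are lowest in OxLDL-treated R150X and highest in untreated WT libraries, adipocyte sums are highest in OxLDL-treated R150X libraries, and macrophage sums lie between 19638 and 25355 CPM.

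Other genes of the acute-phase response were read from a list of 28, of which 14 passed the filter. With OxLDL, 6 fell and 1 rose in R150X cells (2 without untreated R150X 3), with a median log2 fold change of -0.43. In WT cells 10 fell and 2 rose (median -0.93), where the medians of all genes were 0.00 and 0.01. Of all genes tested, 20.6% fell and 18.4% rose in R150X cells, and 23.1% and 22.7% in WT cells. C3, the central complement component, fell, with log2 fold changes of -3.95 (SE 0.0695; adjusted p = 6.92e-21) in R150X cells and -3.61 (SE 0.0682; adjusted p = 3.32e-20) in WT cells. Cp, which encodes the copper ferroxidase ceruloplasmin, fell, with log2 fold changes of -1.62 (SE 0.0705; adjusted p = 4.36e-14) in R150X and -2.25 (SE 0.0724; adjusted p = 2.47e-16) in WT cells. Cfb, complement factor B, had 0, 5 and 0 reads in OxLDL-treated R150X, 0, 0 and 1 in OxLDL-treated WT, 114, 122 and 108 in untreated R150X, and 127, 144 and 101 in untreated WT libraries. Saa1, a liver-type serum amyloid A that could share reads with its close relatives, had 0 reads in all 6 OxLDL-treated libraries, 17, 7 and 2 in untreated R150X and 13, 21 and 2 in untreated WT libraries. Cfb and Saa1 are counted among the 6 and the 10 that fell. Saa2 did not pass the filter. Hpx, the haem-binding partner protein of Hp in plasma, fell by 1.92 (SE 0.517, adjusted p = 4.37e-03) with OxLDL in WT cells and passed no other comparison, the value in R150X cells being 0.18 (SE 0.481). The call rests on 2 to 4 Hpx reads in an OxLDL-treated WT library and 11 to 15 in an untreated WT library.

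Of all genes tested, 18.1% were called higher and 14.8% lower in untreated R150X against WT cells, and 6.1% and 6.92% under OxLDL. Between the genotypes, 3 of these 14 genes were higher and 3 lower in untreated R150X cells (median 0.03), and 4 were higher and 3 lower under OxLDL (median 0.20), where the medians of all genes were 0.01 and 0.00. The 3 lower ones under OxLDL became 1 without any of several single libraries (untreated WT 1 or 2, OxLDL-treated WT 1 or 2, OxLDL-treated R150X 1). Il1rn, the interleukin-1 receptor antagonist, had log2 fold changes of 0.27 (SE 0.0528; adjusted p = 5.07e-04) in untreated and 0.76 (SE 0.0542; adjusted p = 1.86e-09) in OxLDL-treated R150X cells, higher than WT in both. Steap4, a metalloreductase, was higher too, with 0.47 (SE 0.146; adjusted p = 0.0173) in untreated and 1.23 (SE 0.173; adjusted p = 3.22e-05) in OxLDL-treated cells. The long pentraxin Ptx3 was lower in untreated R150X cells (log2 fold change -0.31, SE 0.0646; adjusted p = 1.06e-03). Orm1, an acid glycoprotein, was lower in untreated R150X cells (log2 fold change -1.16, SE 0.386, adjusted p = 0.0254), a call that was lost without untreated WT 1 or 2 or untreated R150X 1 or 3, at -1.16 to -1.01. Orm1 had 9 to 13 reads in untreated R150X and 19 to 31 in untreated WT libraries.

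Genes of the signalling that acts on acute-phase genes were read from a list of 25, all of which passed the filter. The list mixes the cytokines, receptors and transcription factors that switch such genes on with 2 feedback inhibitors (Nfkbia, Socs3) and 3 genes of glucocorticoid signalling (the receptor gene Nr3c1 and its targets Fkbp5 and Tsc22d3), so its counts are not counts of inducers alone. Of all genes tested, 20.6% fell and 18.4% rose with OxLDL in R150X cells, and 23.1% and 22.7% in WT cells. With OxLDL, 17 of the 25 fell and 4 rose in R150X cells (median -0.52), and 15 fell and 3 rose in WT cells (median -0.41). Nfkbia, Socs3 and Fkbp5 are among those that fell in both genotypes and Tsc22d3 among those that rose. The log2 fold changes of Nfkbia were -2.01 (SE 0.0595; adjusted p = 5.53e-17) in R150X and -1.83 (SE 0.0591; adjusted p = 2.57e-16) in WT cells. Il1b, the cytokine interleukin-1 beta, averaged 1.10 ± 0.518 CPM in OxLDL-treated R150X cells, 2.50 ± 0.235 in OxLDL-treated WT cells, 245 ± 9.30 in untreated R150X cells and 116 ± 3.60 in untreated WT cells (SD, n = 3 each). With OxLDL it fell, with log2 fold changes of -7.81 (SE 0.114; adjusted p = 6.21e-22) in R150X and -5.53 (SE 0.105; adjusted p = 3.32e-20) in WT cells. Tnf fell, with log2 fold changes of -3.52 (SE 0.0886; adjusted p = 3.48e-18) in R150X and -3.23 (SE 0.0909; adjusted p = 2.63e-17) in WT cells. Il6, at 1 to 6 reads in a treated library, fell, with log2 fold changes of -3.75 (SE 0.415; adjusted p = 2.13e-07) in R150X and -3.24 (SE 0.428; adjusted p = 2.09e-06) in WT cells. The interleukin-1, interleukin-6 and tumour necrosis factor genes were thus all lower with OxLDL in both genotypes. Nfkbiz, which encodes the NF-kB cofactor IkB-zeta that is needed for Lcn2 induction, fell, with log2 fold changes of -3.04 (SE 0.0706; adjusted p = 1.03e-18) in R150X and -2.84 (SE 0.0700; adjusted p = 2.85e-18) in WT cells. Cebpd fell, with log2 fold changes of -1.03 (SE 0.0964; adjusted p = 1.65e-08) in R150X and -0.81 (SE 0.0956; adjusted p = 4.38e-07) in WT cells. Cebpa rose, by 0.62 (SE 0.0589, adjusted p = 2.03e-08) in R150X and 1.07 (SE 0.0595, adjusted p = 2.49e-12) in WT cells. Cebpb fell in R150X cells (-0.51, SE 0.0894, adjusted p = 9.62e-05) and was not called in WT cells (-0.01, SE 0.0897). Cebpe, at 0 to 3 reads in OxLDL-treated R150X and 9 to 13 in OxLDL-treated WT libraries, was lower in both (-2.15 and -1.02). The C/EBP genes thus moved both ways. Stat3 fell, with log2 fold changes of -0.22 (SE 0.0518; adjusted p = 1.84e-03) in R150X and -0.19 (SE 0.0515; adjusted p = 5.59e-03) in WT cells.

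In R150X against WT, 6 of the 25 rose and 10 fell in untreated cells (median -0.02), and 1 rose and 11 fell under OxLDL (median -0.21). Of all genes tested, 18.1% rose and 14.8% fell in untreated cells, and 6.1% and 6.92% under OxLDL. Il1b was higher in untreated R150X cells (log2 fold change 1.07, SE 0.0632; adjusted p = 6.27e-11) and lower in OxLDL-treated ones (-1.20, SE 0.225; adjusted p = 7.35e-04), and its OxLDL responses differed by -2.28 (SE 0.232; adjusted p = 2.09e-06). Both of the latter rest on 13 to 27 Il1b reads in an OxLDL-treated R150X library and 33 to 44 in an OxLDL-treated WT library. Socs3, the feedback inhibitor of interleukin-6 signalling, was lower in both conditions, with log2 fold changes of -0.78 (SE 0.0679; adjusted p = 2.16e-08) without OxLDL and -0.79 (SE 0.0804; adjusted p = 3.96e-07) with it. Bcl3, an NF-kB cofactor, was lower under OxLDL (log2 fold change -0.62, SE 0.0752; adjusted p = 4.36e-06). Cebpb was higher in untreated R150X cells (log2 fold change 0.43, SE 0.0890; adjusted p = 9.13e-04), and its value under OxLDL was -0.07 (SE 0.0900). Il1r1, the signalling receptor of interleukin-1, was lower in untreated R150X cells (log2 fold change -0.85, SE 0.0806; adjusted p = 7.78e-08), opposite to its ligand gene Il1b.

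**Figure D4:**
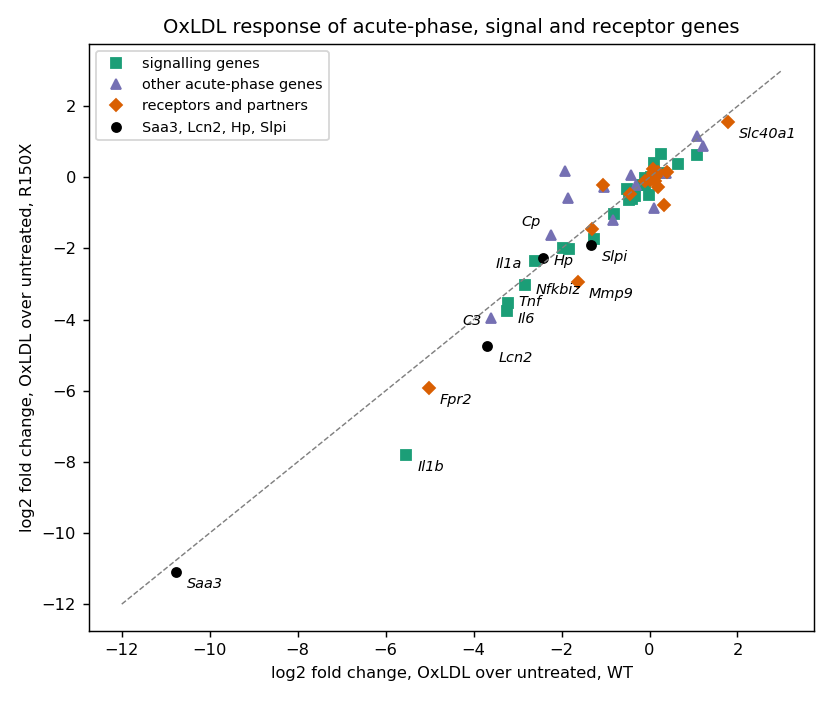
Log2 fold change with OxLDL over untreated cells in R150X (vertical axis) against that in WT (horizontal axis) for Saa3, Lcn2, Hp, Slpi and the genes of the lists of signalling genes, other acute-phase genes and receptors or partners that had at least 1 read in each OxLDL-treated library. The dashed line marks equal values. Saa3 lies farthest from 0 on both axes, at -11.09 and -10.77, and Il1b, Lcn2 and Mmp9 lie below the line by 2.28, 1.04 and 1.30.

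Of 19 receptors and partners of the 4 proteins, 18 passed the filter. With OxLDL, 5 fell and 2 rose in R150X cells (median -0.08), and 4 fell and 4 rose in WT cells (median 0.05). Of all genes tested, 20.6% fell and 18.4% rose in R150X cells, and 23.1% and 22.7% in WT cells. The rises of listed genes in WT cells numbered 2 under library-size scaling, and those in R150X cells 1 without untreated R150X 2. Between the genotypes, 18.1% of all genes tested rose and 14.8% fell in untreated R150X cells, and 6.1% and 6.92% under OxLDL. Of the 18 in R150X against WT, 5 rose and 4 fell in untreated cells (median 0.09), and 1 rose and 3 fell under OxLDL (median -0.09). The 4 became 2 without untreated WT 1, untreated WT 2 or untreated R150X 2, and the 1, Grn, became 0 without OxLDL-treated WT 1 or 2 or OxLDL-treated R150X 1 or 3. Lipocalin 2 binds the matrix metalloproteinase Mmp9 and protects it from breakdown. Mmp9 averaged 36.4 ± 0.333 CPM in OxLDL-treated R150X cells, 37.95 ± 2.06 in OxLDL-treated WT cells, 278 ± 12.9 in untreated R150X cells and 118 ± 4.68 in untreated WT cells. It fell with OxLDL, with log2 fold changes of -2.93 (SE 0.0578; adjusted p = 5.39e-20) in R150X and -1.64 (SE 0.0577; adjusted p = 1.08e-15) in WT cells, and was higher by 1.24 on the log2 scale (SE 0.0522; adjusted p = 3.05e-13) in untreated R150X cells, where Lcn2 was lower.

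Slc22a17, a receptor of lipocalin 2, and Cd163, the macrophage receptor of haptoglobin bound to haemoglobin, passed none of the 5 tests. Slc22a17 averaged 9.87 ± 1.35, 9.97 ± 1.01, 9.18 ± 1.41 and 9.39 ± 0.398 CPM in OxLDL-treated R150X, OxLDL-treated WT, untreated R150X and untreated WT cells, and Cd163 averaged 1.53 ± 0.642, 1.78 ± 0.140, 1.57 ± 0.383 and 1.75 ± 0.205 CPM. The ranges of either receptor gene overlapped between all 4 groups. Slc40a1, the iron exporter ferroportin, rose with OxLDL, with log2 fold changes of 1.56 (SE 0.0522; adjusted p = 4.84e-16) in R150X and 1.79 (SE 0.0526; adjusted p = 5.10e-17) in WT cells. Fpr2, a receptor of serum amyloid A, fell, with log2 fold changes of -5.92 (SE 0.128; adjusted p = 2.57e-19) in R150X and -5.02 (SE 0.124; adjusted p = 2.85e-18) in WT cells. Tlr2, which serum amyloid A can also engage, fell, with log2 fold changes of -1.44 (SE 0.0589; adjusted p = 1.37e-14) in R150X and -1.30 (SE 0.0572; adjusted p = 4.67e-14) in WT cells, while Tlr4 passed no test. The other listed genes whose proteins can bind serum amyloid A were not called with OxLDL, at -0.07 in R150X and 0.00 in WT cells for Scarb1, -0.10 and 0.13 for P2rx7, and 0.16 and 0.20 for Ager. Elane, the elastase that Slpi inhibits, was lower, with log2 fold changes of -2.53 (SE 0.462; adjusted p = 2.65e-04) in untreated and -3.62 (SE 0.510; adjusted p = 3.02e-05) in OxLDL-treated R150X cells, at 1 to 8 reads in an R150X library and 23 to 47 in a WT library. Grn, whose protein progranulin is shielded from elastase by Slpi, was higher by 0.25 on the log2 scale (SE 0.0410; adjusted p = 9.91e-05) in untreated R150X cells.

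Slpi is built of WAP domains, a fold of many protease inhibitors, and of the 8 other WAP-domain genes listed only Wfdc17 and Wfdc21 passed the filter. Wfdc17 fell with OxLDL, with log2 fold changes of -0.38 (SE 0.0643; adjusted p = 7.27e-05) in R150X and -0.39 (SE 0.0627; adjusted p = 2.92e-05) in WT cells. It was lower, with log2 fold changes of -0.41 (SE 0.0624; adjusted p = 3.96e-05) in untreated and -0.40 (SE 0.0646; adjusted p = 1.84e-04) in OxLDL-treated R150X against WT cells, where Slpi was higher or overlapped. Wfdc21 had 3, 0 and 5 reads in OxLDL-treated R150X, 11, 4 and 8 in OxLDL-treated WT, 96, 89 and 80 in untreated R150X and 128, 128 and 137 in untreated WT libraries. It fell with OxLDL in both genotypes (adjusted p = 5.35e-10 in R150X and 7.87e-10 in WT).

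The genes most like each of the 4 over the 12 libraries were found among 10260 genes by the root mean square difference of log2 CPM about each gene's own mean, which is a description over libraries that share the large OxLDL difference. Closest to Saa3, whose own root mean square about its mean was 5.41, were Acod1 (0.78), Slc13a3 (0.85), Cxcl9 (0.89), Marco (0.97) and Ccl5 (1.62). Among the closest to Lcn2, with its own value of 2.17, were Ly6c2 (0.40), Ptgs2 (0.46), Gpr18 (0.51) and Fpr1 (0.53). Closest to Hp, with 1.24, were Ccl3 (0.14), Il1a (0.20), H2-Q6 (0.23), Ppfia3 (0.25) and Cd40 (0.26). Closest to Slpi, with 0.84, were Ccl9 (0.17), Marcksl1 (0.18), Sqle (0.19), Acsl1 (0.20) and Pnp (0.20). None of the 4 genes was among the 5 closest of another.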

How the data were processed

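The authors deposited 1 table of raw read counts by Ensembl gene, whole numbers with a different total for each of 12 bulk libraries. Per the submitters' processing notes, which give no versions, the tools were FastQC, HISAT2, featureCounts and DESeq2 and the builds mm10 and GRCm38. RNA was total RNA, per the labels. Whether counting used strand is not given in the sources used here. If it did not, reads of overlapping genes on opposite strands cannot be told apart. Of the 54532 identifiers, 54495 matched GENCODE M21 on GRCm38, which gave symbols and positions. Promoter windows came from RefSeq, which matched 3 of the 4 genes.

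Genes were filtered with filterByExpr by group, libraries scaled by TMM (factors 0.969 to 1.05), and 1 model (a coefficient for each group, all 12 libraries) was fitted with edgeR 4.0.16 (R 4.3.3) and tested by its quasi-likelihood test, with Benjamini-Hochberg adjustment over 15338 genes and a threshold of 0.05. The 4 genotype and treatment contrasts and their interaction were tested. Each SE is the absolute log2 fold change divided by the square root of the F statistic, not a standard error of the coefficient. It can be too small for large fold changes from few reads. For Saa3 it was 0.154 and 0.153 for the OxLDL responses of R150X and WT cells but 0.374 for their difference. CPM refers to scaled library sizes and log2 CPM had a prior count of 2. The fit was tested on simulated data. The alternatives were DESeq2 1.42.0, library size alone, no filter, a replicate block, a fit of the compared libraries only, and leaving out each library. Same-numbered libraries' deviations correlated by -0.04 to 0.16, so numbers were not taken as pairs. The 4 genes, the gene lists and the rule for named genes (up to 3 of a list with the smallest adjusted p in a comparison, and some by name) were chosen with earlier results of these data known. Columns of the table that belonged to no sample numbered 0. Of the genes most like the 4, 1 is not reported here.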

Additional observations from a re-analysis of the deposited data

Results flagged for a closer look

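The OxLDL response differed between the genotypes, by the interaction term of edgeR's quasi-likelihood fit at an adjusted p under 0.05, for 19 of the genes singled out here. The values are the log2 response in R150X minus that in WT, and groups of 3 were too small for a test of single libraries. The alternatives reuse the same 12 libraries, and the lists were chosen with earlier results known, so a call that held is no independent support. For 10 of the 19 the call held in all 16 alternatives. These were Lcn2 (-1.04), which is a description of a gene chosen on these libraries, Il1b (-2.28), Mmp9 (-1.30), Cp (0.63), Il1rn (0.48), Anxa2 (-0.47), Bcl3 (-0.46), Cebpa (-0.45), the neutrophil marker Ngp (-0.73) and Gpnmb itself (-0.36). Hmox1 (-0.26) and the macrophage marker Cd68 (-0.22) lost the call under library-size scaling alone. Cebpb (-0.49) lost it with DESeq2 and without untreated WT 1 or OxLDL-treated WT 3. Fpr2 (-0.90) lost it under library-size scaling and without OxLDL-treated WT 1 or 2 or OxLDL-treated R150X 1 or 3. The calls of Serpina3g (-0.38), Steap4 (0.76), Il1r1 (0.38), Tsc22d3 (-0.27) and C3 (-0.35) were lost in 13, 13, 11, 8 and 8 of the 16.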

How the results depend on the processing

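Across 17 alternatives (16 for the interaction), every call made for Saa3, Lcn2, Hp and Slpi kept its direction and its side of the threshold. The 4 genes were chosen on these same libraries, so this describes the effect of processing and gives the calls no support. Values that were not called moved as follows. The log2 fold change of Saa3 in untreated R150X against WT cells passed the threshold with no filter on low counts (0.16), and ran from 0.0058 to 0.26 on leaving out single libraries, passing it without untreated R150X replicate 2. Under OxLDL it ran from -0.37 to 0.080 and that of Slpi from -0.045 to 0.17 on leaving out single libraries. The interaction of Hp was 0.24 under library-size scaling, ran from 0.094 to 0.23 on leaving out single libraries and passed the threshold without untreated R150X replicate 1. That of Saa3 ran from -0.55 to -0.095 (without OxLDL-treated R150X replicates 3 and 1) and that of Slpi from -0.70 to -0.44 on leaving out single libraries, without passing it. With the replicate block, the OxLDL responses of Lcn2 differed by -1.04 and no call of the 4 genes changed. Scaling by library size alone shifted the median of all genes by -0.114 in the OxLDL comparison in WT, and by less than 0.1 elsewhere. Of 51 uncalled values of genes that were always to be named, 26 changed sign and 6 passed the threshold in some alternative; the causes were not tested. Depth limits Saa3, Il6, Il1b, Fpr2 and Hpx, among others, in treated libraries, with few reads each. Fpr2 had 17 to 34 reads in OxLDL-treated R150X and 22 to 37 in OxLDL-treated WT libraries.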
